A study of Mus musculus with 21 samples.

Results

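Regulatory T cells (Tregs) sorted from the heart 7 days after myocardial infarction were set against Tregs sorted from the mediastinal lymph node (MLN), the node that drains the heart. The comparison takes 6 of the study's 21 RNA-sequencing libraries, 3 of heart Tregs and 3 of MLN Tregs, chosen by their titles, and all 49510 genes of the count table, of which 14996 had enough reads to be tested. All 6 libraries came from 8-week-old Foxp3-GFP mice, in which a green fluorescent protein reports the Treg transcription factor Foxp3, and all mice had been given an infarct, so neither group is an uninjured control. Enrichment on magnetic columns was followed by fluorescence-activated sorting, and cDNA was made from the sorted cells with an ultra-low-input SMARTer kit. The study also sequenced Tregs of spleen and of a non-draining lymph node (NDLN), and conventional T cells of heart, spleen and NDLN. The labels do not say whether the libraries of a group came from separate or pooled animals, so the p-values measure only how much libraries spread. In the main fit that spread is estimated over all 21 libraries.

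Tregs are CD4+ T cells that restrain other immune cells through surface receptors such as CTLA-4, through capture of interleukin 2 and through secreted factors such as interleukin 10. Lymph node Tregs keep receptors for circulation through lymphoid tissue, while Tregs that settle in injured tissue are known for chemokine receptors, the alarmin receptor ST2 and growth factors that act on parenchymal cells. In the injured heart Tregs are known to limit inflammation and to shape the scar. In bulk RNA, fewer cells of a type and less RNA per cell cannot be told apart.

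The 6 libraries fall on both sides of a divide that does not follow tissue. Mitochondrial ribosomal RNA took 0.0915%, 4.15% and 3.99% of counts in heart libraries 1, 2 and 3, and 0.0649%, 0.092% and 2.09% in MLN libraries 1, 2 and 3. Heart 1, MLN 1 and MLN 2 are called the low side below, and heart 2, heart 3 and MLN 3 the high side. The low side therefore holds 1 heart and 2 MLN libraries and the high side 2 heart and 1 MLN library. A contrast within a side compares only that side's libraries. Its p-value, however, rests on a spread estimated over all 21 libraries. The low-side libraries were also shallower, with 17108984 to 18836313 counts against 20324711 to 28323649. They nonetheless had a count in 12917 to 13965 genes each, against 10980 to 12901 on the high side. Ribosomal protein genes took 4.94% to 9.77% of counts on the low side and 11.1% to 12.6% on the high side. The correlation of log levels between heart 1 and MLN 1 (r = 0.850, across genes) was higher than that between heart 1 and heart 2 (r = 0.776) or heart 3 (r = 0.772). MLN 3 went the other way, closer to MLN 1 (r = 0.793) and MLN 2 (r = 0.824) of the low side than to heart 2 (r = 0.787) and heart 3 (r = 0.788) of its own side. The labels give no batch for these libraries, and the divide's source was not tested. Foxp3 was read in all 6 libraries, at 248, 142 and 113 CPM (counts scaled by library size and TMM factor) in heart 1, 2 and 3 and at 128, 49.9 and 95.1 CPM in MLN 1, 2 and 3. The summed T cell markers ran from 5583 to 6596 CPM of the library total in heart and from 7943 to 8760 CPM in MLN.

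Against this spread, edgeR's quasi-likelihood test called 10 of 14996 genes at a Benjamini-Hochberg adjusted p under 0.05, which is 0.0667% of the genes tested. Of the 10, 7 were higher in heart (0.0467%) and 3 lower (0.02%). The 8 named below hold a surface glycoprotein (Emb), a cell cycle inhibitor (Cdkn1a), a protease inhibitor (Ctla2a), a trafficking GTPase (Arf4), an iron store (Fth1), a pair of extracellular matrix genes (Mgp and Dcn) and a bacterial lipopeptide receptor (Tlr1). At an unadjusted p under 0.05 there were 1436 genes (9.58%), 471 higher (3.14%) and 965 lower in heart (6.44%). DESeq2 called 293 genes higher (2.07%) and 715 lower (5.06%), and limma-voom 81 higher (0.54%) and 145 lower (0.967%). With RLE size factors in place of TMM, edgeR called 2 of the 10 (Emb and Gm19261) and gave the other 8 an adjusted p of at most 0.0542, and in the fit of the 6 libraries alone it called 0 (1043 genes at an unadjusted p under 0.05). All 3 heart libraries lay above all 3 MLN libraries in 705 genes (4.7%) and below them in 1154 (7.7%). The median log2 fold change over all genes tested, heart minus MLN, was -0.12.

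**Figure D1:**
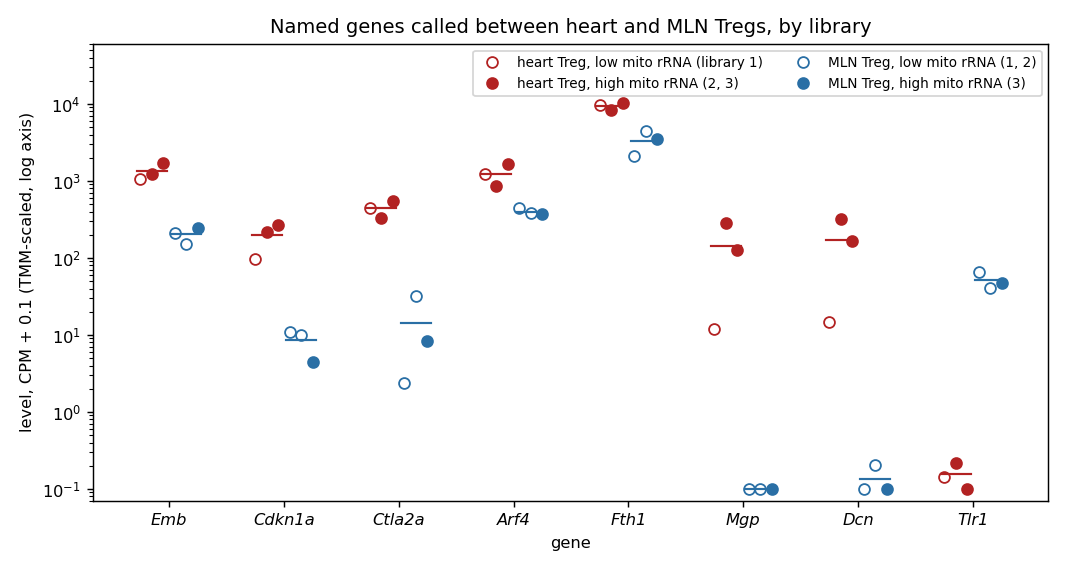
Level of each of the 8 named genes called by edgeR, in CPM + 0.1 on a log axis, in heart Treg libraries (red) and MLN Treg libraries (blue); open circles are libraries with little mitochondrial rRNA, filled circles the others, and horizontal lines are group means over 3 libraries. In each of the 8 genes the 3 heart libraries lie on one side of the 3 MLN libraries, and Mgp and Dcn are lowest in heart 1 among the heart libraries.

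Promoter sequence is shown for the called genes Emb, Cdkn1a and Ctla2a, the 3 with the largest fold changes among the called genes read in every library. Of the 10 called genes 7 have a promoter window in the RefSeq table (build GRCm38.p6). The 250 bases before an annotated start are printed 5′ to 3′ on the gene's strand. In Ctla2a (chr13:60936626-60936875, minus strand) the capitals mark an AP-1 match (TGANTCA), in Cdkn1a (chr17:29090729-29090978, plus strand) a pair of p53 core letters (CATGNNNNNNCATG), and in Emb (chr13:117220323-117220572, plus strand, inside the annotated span of the gene) a GC box (GGGCGG). For Ctla2a and Cdkn1a the window was printed because it holds the marked motif, so the match is no finding. The other Cdkn1a window (chr17:29093519-29093818) holds 0 p53 pairs and 2 GC boxes. The other Ctla2a window (chr13:60936517-60936816) overlaps the printed one and holds the same AP-1 match, not a further one.
Ctla2a: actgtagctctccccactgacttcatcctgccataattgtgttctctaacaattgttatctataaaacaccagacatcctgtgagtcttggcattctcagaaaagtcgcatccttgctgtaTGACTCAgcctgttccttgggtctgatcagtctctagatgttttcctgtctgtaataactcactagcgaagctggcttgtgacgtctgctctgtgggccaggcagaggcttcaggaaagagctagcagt
Cdkn1a: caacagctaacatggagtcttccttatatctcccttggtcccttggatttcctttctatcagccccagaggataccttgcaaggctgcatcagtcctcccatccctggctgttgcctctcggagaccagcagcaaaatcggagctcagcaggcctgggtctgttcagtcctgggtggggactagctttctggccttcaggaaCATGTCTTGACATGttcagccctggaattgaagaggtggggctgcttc
Emb: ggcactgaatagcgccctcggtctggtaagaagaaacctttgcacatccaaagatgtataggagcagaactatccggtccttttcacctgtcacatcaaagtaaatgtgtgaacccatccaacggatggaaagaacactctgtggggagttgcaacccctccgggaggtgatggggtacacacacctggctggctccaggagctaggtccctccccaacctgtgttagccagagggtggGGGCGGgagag
Both strands of the full windows of 300 bases (250 before and 50 after the start) were searched for 5 motifs, and none of the printed matches overlaps another. Of all 32851 windows, 7.81% held an AP-1 match, 0.712% the p53 pair, 35.7% a GC box, 1.79% a cyclic AMP response element (TGACGTCA) and 7.15% an E-box (CACGTG). These are matches of letters in a window and no binding was measured.

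Emb (chromosome 13, 117208536 to 117274415, plus strand, GRCm38) encodes embigin, a glycoprotein of the immunoglobulin superfamily that takes part in cell adhesion and escorts monocarboxylate transporters to the membrane. It stood at 1054, 1220 and 1705 CPM in heart 1, 2 and 3 and at 211, 152 and 243 CPM in MLN 1, 2 and 3. The lowest heart library was more than 4-fold above the highest MLN library. Emb rose 6.57-fold in heart Tregs (1326 ± 338 against 202 ± 46 CPM, SD, n = 3 each; log2 fold change 2.71, SE 0.277, adjusted p = 6.22e-05, edgeR). Within the low side the log2 fold change was 2.54 and within the high side 2.59, both from 1 fit of all 21 libraries. There the spread of a tissue with 1 library is taken from the rest of the fit. These sides called 3 genes (0.02%) and 8 genes (0.0533%), and Emb was the 1 gene they shared. Tregs of spleen (236 to 289 CPM) and NDLN (167 to 236 CPM) lay near the MLN level and below every heart library. Emb passed in 14 of 16 alternative settings, missing with the 6 libraries fitted alone (adjusted p = 0.189) and with a replicate block in that fit (adjusted p = 0.122).

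Cdkn1a (chromosome 17, 29090976 to 29100727, plus strand) encodes p21, an inhibitor of cyclin-dependent kinases that is a classical p53 target. Its level was 97.7, 219 and 269 CPM in heart 1, 2 and 3 and 10.9, 9.76 and 4.36 CPM in MLN 1, 2 and 3. Every heart library was above every MLN library, heart 1 least so. Cdkn1a rose 23.4-fold (log2 fold change 4.55, SE 0.785, adjusted p = 0.0471, edgeR), by 3.24 on the log2 scale on the low side and 5.81 on the high side. Of the 14 tested CDK inhibitors and p53 targets it was the 1 called, beside 0.0467% of all genes tested called higher. DESeq2 and limma-voom each called 2 of the 14 higher. Log2 fold changes were above 0 in 9 of the list and below 0 in 4, beside 6497 and 8033 of all 14996 genes tested. The growth arrest gene Gadd45b did not pass (660, 760 and 677 CPM against 202, 261 and 52.2 CPM, log2 fold change 2.03, adjusted p = 0.496), nor did Mdm2, the p53 ubiquitin ligase (150, 48.6 and 140 CPM against 95, 9.31 and 29.2 CPM). Heart and MLN did not overlap in Gadd45b and overlapped in Mdm2. Cdkn1a lost its call in the fit with a term for the divide (adjusted p = 0.0595) and when heart 2, heart 3 or any MLN library was left out (adjusted p up to 0.212).

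Ctla2a (chromosome 13, 60934155 to 60936625, minus strand) encodes a cysteine protease inhibitor first found in activated T cells. It has a close paralog, Ctla2b, and the treatment of reads that match both is not given in the sources used here, so its level is uncertain to that extent. It was read at 440, 333 and 545 CPM in heart 1, 2 and 3 and at 2.30, 32.3 and 8.35 CPM in MLN 1, 2 and 3. As a ratio the MLN libraries differed more among themselves than the heart libraries did, yet the lowest heart value was over 10 times the highest MLN value. Ctla2a rose 30.7-fold (log2 fold change 4.94, SE 0.886, adjusted p = 0.0471, edgeR), by 4.67 on the low side and 5.72 on the high side. Spleen Tregs (12.4 to 23.2 CPM) and NDLN Tregs (7.91 to 32.7 CPM) fell within the MLN range or close to it. It kept its call with a term for the divide (adjusted p = 0.0412) and lost it without heart 2, heart 3, MLN 1 or MLN 3 (adjusted p up to 0.28) and by limma-voom (adjusted p = 0.0557).

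Arf4 and Fth1 were the abundant genes with the smallest called differences. Arf4 (chromosome 14, 26638074 to 26665084, plus strand), a small GTPase of Golgi trafficking, was at 1212, 847 and 1665 CPM in heart 1, 2 and 3 and at 447, 378 and 371 CPM in MLN 1, 2 and 3. It rose 3.11-fold (log2 fold change 1.64, SE 0.30, adjusted p = 0.0471, edgeR), with 1.56 on the low side and 1.76 on the high side. Fth1 (chromosome 19, 9980598 to 9985098, plus strand), the ferritin heavy chain that stores iron, was at 9750, 8243 and 10139 CPM in heart and at 2123, 4394 and 3457 CPM in MLN. Fth1 rose 2.82-fold (log2 fold change 1.5, SE 0.275, adjusted p = 0.0471, edgeR), with 1.58 on the low side and 1.41 on the high side. Neither gene's groups overlapped, and the sizes of both differences were alike on the sides of the divide. Processed copies of Fth1 exist in the genome, and how reads shared with them were counted is not given in the sources used here. Leaving out 1 library at a time, Arf4 had an adjusted p up to 0.266 (called without heart 1 or heart 2) and Fth1 up to 0.212 (called without heart 1).

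Mgp and Dcn are products of connective tissue cells. Mgp (chromosome 6, 136872435 to 136875823, minus strand), matrix Gla protein, an inhibitor of calcification, was at 11.8, 283 and 128 CPM in heart 1, 2 and 3 and had 0 counts in each MLN library. Taking 3 counts over the MLN group as the limit that a count of 0 allows, Mgp was at least 3206-fold higher in heart (adjusted p = 0.0471, edgeR). Dcn (chromosome 10, 97479609 to 97518143, plus strand), the collagen-binding proteoglycan decorin, was at 14.4, 323 and 168 CPM in heart and had 2 counts in all MLN libraries together. The ratio of summed levels was 5756 (95% counting interval 1593 to 47538, adjusted p = 0.0482, edgeR). Both genes were more than 10-fold lower in heart 1 than in the other heart libraries. Both lost the call in the fit with a term for the divide (adjusted p = 0.0764 and 0.133) and when heart 2, heart 3 or any MLN library was left out (adjusted p up to 0.266 and 0.307). Spleen and NDLN Tregs had at most 0.0476 CPM of Mgp and 0.232 CPM of Dcn.

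Other fibroblast markers were also read in heart and hardly in MLN. The 16 genes of the list, Dcn among them, summed to 206, 733 and 585 CPM of the library total in heart 1, 2 and 3 and to 0, 0.234 and 5.26 CPM in MLN 1, 2 and 3, and 12 of the 16 had 0 counts in MLN. Of 13 tested members 1 was called (Dcn, 1 of 13 against 0.0467% of all genes), 10 were higher at an unadjusted p under 0.05 (3.14% of all genes tested), whereas DESeq2 called 8 and limma-voom 9. In 9 of 13 members all heart libraries lay above all MLN libraries (4.7% of all genes tested). Fn1, the matrix glycoprotein fibronectin, was at 35.4, 99.3 and 39 CPM in heart and at 0 in MLN (adjusted p = 0.299). Postn, the matricellular protein periostin of healing infarcts, was at 31.1, 5.14 and 101 CPM against 0 (adjusted p = 0.285). Both were present in all 3 heart libraries without passing the test, and Postn was lowest in heart 2, where Mgp and Dcn were highest. Fbln1, the matrix protein fibulin 1, was at 5.81, 0 and 8.76 CPM against 0. Sparc, a collagen-binding matricellular protein, was at 39, 145 and 124 CPM against 0, 0 and 3.04 CPM (log2 fold change 6.66, adjusted p = 0.487). The fibroblast receptors Pdgfra and Pdgfrb and the transcription factor Tcf21 had too few counts to be tested, Pdgfra with 0 counts in heart and Tcf21 with 0 counts in all 6 libraries. Whether these reads came from fibroblasts, from free RNA or from the Tregs was not tested.

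**Figure D2:**
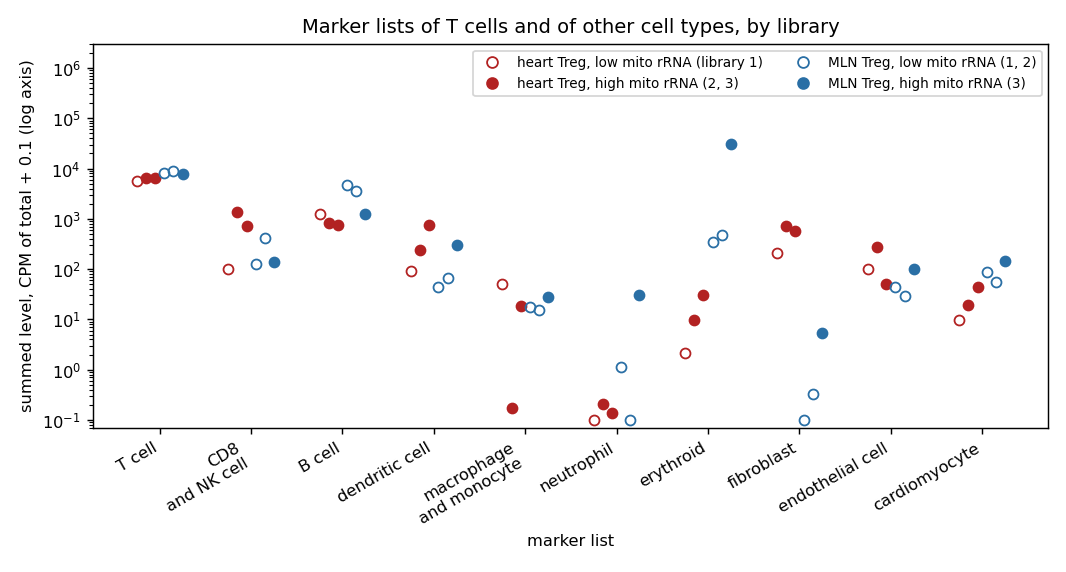
Summed level of each marker list in CPM of the library total + 0.1, on a log axis, in each heart (red) and MLN (blue) Treg library, open where mitochondrial rRNA was low. T cell markers stay between 5583 and 8760 CPM, fibroblast markers lie at 206 to 733 CPM in heart and at most 5.26 CPM in MLN, and erythroid markers reach 30088 CPM in MLN 3.

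Erythroid and B cell markers lay in the opposite direction. Erythroid markers summed to 2.02, 9.62 and 30.6 CPM in heart and to 342, 477 and 30088 CPM in MLN, MLN 3 far above the rest. Of 6 tested erythroid genes none was called by edgeR's quasi-likelihood test, all 6 were lower at an unadjusted p under 0.05 (6.44% of all genes tested), whereas DESeq2 called 5 lower and limma-voom 0. In 4 all heart libraries lay below all MLN libraries (7.7% of all genes tested). The globin gene Hba-a1, which shares reads with its copy Hba-a2, was at 0.132, 0.119 and 6.45 CPM against 109, 184 and 12342 CPM (adjusted p = 0.341), and it passed in the fit with a term for the divide (adjusted p = 0.0457). B cell markers summed to 1254, 836 and 750 CPM in heart and to 4772, 3604 and 1233 CPM in MLN, mostly from Ighm, and to 22.1, 0.112 and 23.4 against 73.1, 107 and 51.9 CPM without it. The B cell defining gene Ms4a1 had 0 counts in all 6 libraries. Ighm, the immunoglobulin mu chain, was at 1022, 886 and 781 CPM against 3483, 3027 and 1089 CPM (log2 fold change -1.50, adjusted p = 0.265). Markers of CD8 T and NK cells summed to 99.3, 1391 and 721 CPM in heart against 127, 423 and 140 CPM, in heart 2 and heart 3 mostly from the granule gene Nkg7. Cd8a had 0 counts in heart, while Cd8b1 was at 27.6, 0 and 0.0379 CPM in heart and at 30.5, 43.6 and 12.2 CPM in MLN. Dendritic cell markers summed to 93.5, 238 and 760 CPM against 44.8, 67.2 and 299 CPM, in heart 3 and MLN 3 mostly from Cd74 (21502 and 5702 counts). H2-Aa (0, 3 and 0 against 188, 142 and 71 counts) and H2-Eb1 (0, 2 and 1 against 123, 253 and 35 counts) went the other way. Of 7 tested members of this list 5 had log2 fold changes above 0, and DESeq2 called 2 lower. Endothelial markers summed to 99.4, 269 and 51.6 against 44.2, 29.3 and 101 CPM, and cardiomyocyte markers to 9.77, 19.2 and 43.1 against 87.5, 55.2 and 148 CPM. The cardiomyocyte sums were mostly Ttn except in heart 2, where Actc1 had 417 counts. Macrophage markers stayed at or below 50.8 CPM and neutrophil markers at or below 30.2 CPM in all 6 libraries. The part of these cell types in the differences below was not tested.

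Tlr1 was the 1 named gene called lower in heart. Tlr1 (chromosome 5, 64924679 to 64933563, minus strand) encodes the toll-like receptor that pairs with TLR2 to sense bacterial lipopeptides. It was at 0.044, 0.119 and 0 CPM in heart 1, 2 and 3, 4 counts in all, and at 65.1, 40.2 and 47.1 CPM in MLN 1, 2 and 3. Tlr1 fell by 9.73 on the log2 scale (SE 1.74, adjusted p = 0.0471, edgeR), and heart was near 0 on both sides of the divide. Spleen (49.9 to 59.3 CPM) and NDLN Tregs (29 to 136 CPM) overlapped the MLN range and lay far above every heart library. Tlr1 kept the call with a term for the divide (adjusted p = 0.0457), and leaving out any 1 of the 6 libraries gave an adjusted p from 0.0753 to 0.142. The other called genes are D330023K18Rik (0 counts in heart against 1.72, 18 and 11.1 CPM, adjusted p = 0.0471) and Gm19261 (0 counts against 2.34, 7.64 and 14.6 CPM, adjusted p = 0.0185), an uncharacterised transcript and an antisense gene. Reads of Gm19261 cannot be told apart from those of its overlapping partner, since the strand setting of the counting is not given in the sources used here.

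Further genes were near 0 in all heart libraries and clearly read in all MLN libraries without passing the test. Counting genes with at least 5 CPM in each library of one tissue and at most 0.5 CPM in each of the other, 52 were present in MLN and absent in heart, and 17 were present in heart and absent in MLN. The called Tlr1 is among the 52, and the called Mgp and Dcn are among the 17. Genes with any count numbered 12917, 11317 and 10980 in heart 1, 2 and 3 and 13965, 13222 and 12901 in MLN 1, 2 and 3. The part of this difference in detection in the 52 and 17 was not tested. Fcmr, the Fc receptor for IgM, had 0 counts in heart and 47.4, 17.1 and 32.2 CPM in MLN (at least 825-fold lower in heart, adjusted p = 0.227). NDLN Tregs ran from 0 to 39.5 CPM of Fcmr and spleen Tregs from 30.8 to 73.9 CPM. Nup37, a subunit of the nuclear pore, had 3 counts in all heart libraries and 29.5, 38.6 and 59.8 CPM in MLN (ratio 1049, counting interval 359 to 5088, adjusted p = 0.182). Alg14, of the first steps of N-glycan synthesis, was at 0, 0.356 and 0 CPM against 18.8, 29.2 and 23.9 CPM (adjusted p = 0.156). The same shape held for the lysine methyltransferase gene Fam173b (adjusted p = 0.193) and the potassium chloride cotransporter Slc12a7 (adjusted p = 0.224). Zbtb7b, which encodes ThPOK, the transcription factor that commits thymocytes to the CD4 lineage, was at 0, 0.0395 and 0 CPM against 10.9, 15.7 and 6.35 CPM (adjusted p = 0.193), and the surface receptor Cd160 at 0, 0.0395 and 0.0759 CPM against 43, 23.4 and 21.1 CPM (adjusted p = 0.265). Both were chosen after their values were seen. Cd4 itself was read at 64.9, 119 and 23.6 CPM in heart and at 59, 38.7 and 68.2 CPM in MLN, and Cd3e at 284, 205 and 319 against 286, 213 and 298 CPM.

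Among abundant genes, several had groups that did not overlap and the same direction on each side of the divide, yet missed the threshold. On the heart side the nearest was Slc25a3, the phosphate carrier of the mitochondrial inner membrane, at 958, 1132 and 998 CPM against 515, 385 and 416 CPM (log2 fold change 1.23, adjusted p = 0.0662, edgeR). It passed in the fit with a term for the divide (adjusted p = 0.0457), by DESeq2 (2.71e-05) and by limma-voom (0.000784). Ifrd1, a transcriptional coregulator, was at 1087, 796 and 350 CPM against 85.1, 103 and 50.3 CPM (log2 fold change 3.23, adjusted p = 0.0798), and Strap, of the SMN complex and TGF-beta signalling, at 122, 266 and 188 against 18.4, 11.1 and 44.3 CPM (2.96, adjusted p = 0.0798). Gpcpd1, a glycerophosphocholine phosphodiesterase (155, 223 and 182 against 44.4, 56.8 and 40.1 CPM), and Pde4b, which degrades cyclic AMP (262, 325 and 377 against 143, 80.1 and 88 CPM), followed with adjusted p of 0.15 and 0.169. In these 5 genes the lowest heart library lay above the highest MLN library. In Strap, however, Tregs of spleen (69.6 to 189 CPM) and NDLN (117 to 200 CPM) overlapped the heart range and lay above every MLN library. In the other genes of this paragraph spleen and NDLN Tregs lay below every heart library.

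On the MLN side stood Dguok, the mitochondrial deoxyguanosine kinase, at 34.8, 4.03 and 5.46 CPM in heart against 117, 105 and 107 CPM (log2 fold change -2.89, adjusted p = 0.202, edgeR). Its MLN levels were nearly level across the divide, and within the high side it passed (log2 fold change -4.49, adjusted p = 0.0284), with -1.67 and no call on the low side. Ccnd3, cyclin D3 of the G1 phase, was at 48.4, 47.3 and 24.7 CPM against 134, 123 and 116 CPM (log2 fold change -1.63, adjusted p = 0.265). The proton pump subunit Atp6v1d (212, 151 and 95.1 against 341, 453 and 389 CPM), Commd3, of the endosomal commander complex (105, 104 and 115 against 178, 344 and 334 CPM), Nsmce1, of the SMC5/6 complex (169, 124 and 137 against 227, 428 and 378 CPM), and the membrane protein Tmem60 (23.3, 7.79 and 23.8 against 65.2, 46 and 135 CPM) had adjusted p from 0.193 to 0.244. None of the 6 overlapped between tissues.

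Agreement across the divide was limited over all genes and closer among abundant ones. Of 12543 genes with a count on each side, 7363 (58.7%) had the same sign of the heart minus MLN difference within the low side and within the high side. The share was 56.7% under a mean of 1 CPM, 55.2% from 1 to 10, 58% from 10 to 50, 64.5% from 50 to 200 and 68.3% above 200 CPM. The difference on one side correlated with that on the other at r = 0.24 and rho = 0.23 over all 12543 genes, on log2(CPM + 2), and at r = 0.38 and rho = 0.35 over the 5400 genes with a mean of at least 20 CPM. Among the 5400, 202 genes were past 4-fold higher in heart on the low side, and 184 (91.1%) of these were higher on the high side too. Of 265 past 4-fold lower in heart on the low side, 167 (63%) were lower on the high side. From the high side, 388 of 536 past 4-fold higher (72.4%) and 197 of 271 past 4-fold lower (72.7%) had the same sign on the low side. Without the minimum of 20 CPM these shares were 60.8% (695 of 1143) and 58.7% (1706 of 2906) from the low side, and 50.1% (1165 of 2327) and 68.9% (1846 of 2679) from the high side. The minimum is a mean over all 6 libraries, those of the other side included, so the choice of the 5400 itself can favour agreement. All 10 called genes had the same sign on both sides, which a call from both sides together favours. The genes are not independent replicates, and each side holds a tissue with a single library.

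**Figure D3:**
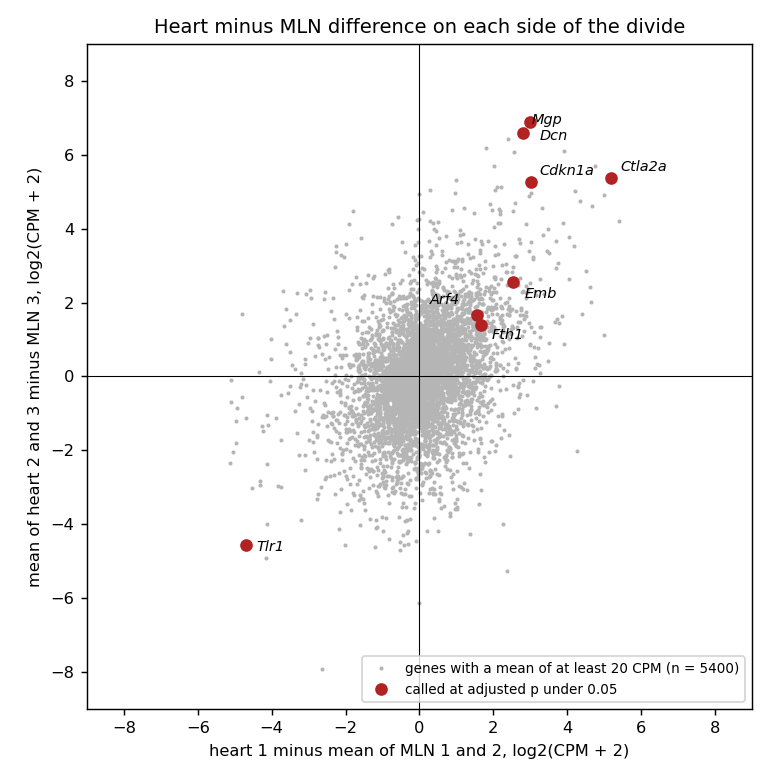
Each point is a gene with a mean of at least 20 CPM over the 6 libraries (5400 genes). Each is placed by its heart minus MLN difference in log2(CPM + 2) on the low side (x axis) and on the high side (y axis). Red points are genes called by edgeR between heart and MLN in the fit of all 21 libraries. The cloud is broad (r = 0.38), and the called genes sit in the quadrants of matching sign.

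Some genes also differed between the sides of the divide, in a term pooled over groups and not tested within each tissue. In an edgeR fit of all 21 libraries with a term for the divide added to the groups, the divide term was called in 301 genes (2.01%) and the tissue difference in 13 (0.0867%), 7 higher and 6 lower in heart. The divide term rests on heart Tregs, MLN Tregs and heart conventional T cells, the groups with libraries on both sides, and the tissue difference on 3 against 3 libraries, so these counts are not on equal footing. Across the 5400 genes, the low minus high difference within heart correlated with that within MLN at r = 0.53 and rho = 0.47 (r = 0.33 and rho = 0.28 over all 12543 genes), 2 comparisons that share no library. By the presence rule above, 52 genes were present on the low side and absent on the high side, and 32 the reverse, beside the 52 and 17 that followed tissue. Ranbp1, a regulator of nuclear transport, was at 330, 242 and 315 CPM in heart 2, heart 3 and MLN 3 and at 0, 0.041 and 0 CPM in heart 1, MLN 1 and MLN 2 (divide term adjusted p = 4.58e-12, edgeR). Ndufs3, a subunit of respiratory complex I, was at 99.2, 192 and 223 CPM against 0 in each low-side library (divide term adjusted p = 1.18e-10). Both genes were chosen after their values were seen.

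The costimulatory receptors Icos and Cd28 followed the divide. Icos, which sustains effector Tregs, was at 379, 2372 and 1986 CPM in heart 1, 2 and 3 and at 223, 162 and 904 CPM in MLN 1, 2 and 3. Its log2 fold change over all libraries was 1.88 (adjusted p = 0.496), but 0.98 on the low side and 1.27 on the high side, and its divide term passed (adjusted p = 0.000415, edgeR). Cd28, which provides the second signal of T cell activation, was at 65.3, 953 and 849 CPM against 41.8, 27.6 and 459 CPM, with 1.82 over all libraries, 0.91 and 0.97 within the sides and a divide term at adjusted p = 1.02e-06. In both genes the value over all libraries exceeded both values within sides, where heart has 1 low-side library and MLN has 2. The chaperone Hsp90aa1 showed the same shape (43.6, 980 and 796 against 35.8, 22.9 and 682 CPM).

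No Treg identity gene passed the test between heart and node. Of 21 tested members 0 were called by edgeR, 2 higher and 1 lower had an unadjusted p under 0.05, whereas DESeq2 called 0 and limma-voom 1 higher and 1 lower. Here and in the lists below, counts at an unadjusted p under 0.05 stand beside 3.14% higher and 6.44% lower of all genes tested. Ctla4, the inhibitory receptor that strips B7 ligands, was at 1117, 1742 and 2106 CPM against 516, 552 and 656 CPM, without overlap (log2 fold change 1.53, adjusted p = 0.457, limma-voom adjusted p = 0.00424). Izumo1r, the folate receptor 4 of resting Tregs, was at 603, 398 and 430 CPM against 1521, 1912 and 1290 CPM, also without overlap (-1.72, adjusted p = 0.457). Il2ra, the interleukin 2 receptor alpha chain, was at 252, 443 and 249 CPM against 160, 208 and 242 CPM. Ikzf2, the Treg factor Helios, was at 296, 678 and 701 CPM against 391, 336 and 762 CPM, and its fold change of 0.17 turned to -0.30 and -0.14 within the sides. Foxp3 had a log2 fold change of 0.88 (adjusted p = 0.675). The list's median log2 fold change was 0.52, beside -0.12 over all genes tested.

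Genes of suppressive function and of tissue-repair Tregs lay mostly above the median of all genes, without a called member. In the tissue-repair list 16 of 17 log2 fold changes were above 0, beside 6497 of all 14996 genes tested, and the median was 1.49 (1.00 on the low side, 2.10 on the high side). On both sides 15 were higher in heart (21% of all genes tested), and in 5 all heart libraries lay above all MLN libraries (4.7% of all genes tested). By edgeR 0 of 17 were called and 4 had an unadjusted p under 0.05, while DESeq2 called 3 and limma-voom 2. Id2, an inhibitor of E proteins, was at 1866, 1683 and 1530 CPM against 372, 742 and 453 CPM (1.70, adjusted p = 0.265), with 1.74 and 1.83 within the sides. Rora, a nuclear receptor of tissue lymphocytes, was at 350, 376 and 257 CPM against 59.5, 31.2 and 27.8 CPM (3.05, adjusted p = 0.48). Il1rl1, which encodes the alarmin receptor ST2, was at 166, 81.9 and 59.8 CPM against 19.6, 0.152 and 11.6 CPM (3.30, adjusted p = 0.508). In these 3 genes no MLN library reached a heart library. Areg, the epidermal growth factor receptor ligand amphiregulin, overlapped, at 283, 106 and 580 CPM against 43.8, 190 and 60.8 CPM (1.72, adjusted p = 0.618), as did Gata3 (42.1, 64 and 86 against 53, 29.7 and 16.4 CPM). Penk, which encodes the opioid precursor proenkephalin, was the member below 0, at 24.7, 0 and 300 CPM against 163, 146 and 166 CPM.

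In the suppressive effector list the median was 1.05 over 16 tested members and 6 had all heart libraries above all MLN libraries (4.7% of all genes tested), with 0 called by edgeR. The unadjusted p was under 0.05 for 1 higher and 1 lower member, and DESeq2 called 1 lower and limma-voom 2 higher. Gzmb, the cytotoxic protease granzyme B, was at 1139, 2319 and 932 CPM against 356, 675 and 220 CPM (1.81, adjusted p = 0.82), also without overlap. Il10, the suppressive cytokine, was at 507, 1378 and 663 CPM against 144, 444 and 144 CPM (1.8, adjusted p = 0.863). Tigit, an inhibitory receptor, was at 485, 1493 and 1560 CPM against 342, 465 and 392 CPM (1.56, adjusted p = 0.578), with 0.26 on the low side and 1.96 on the high side. In both genes heart 1 lay only just above the highest MLN library.

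**Figure D4:**
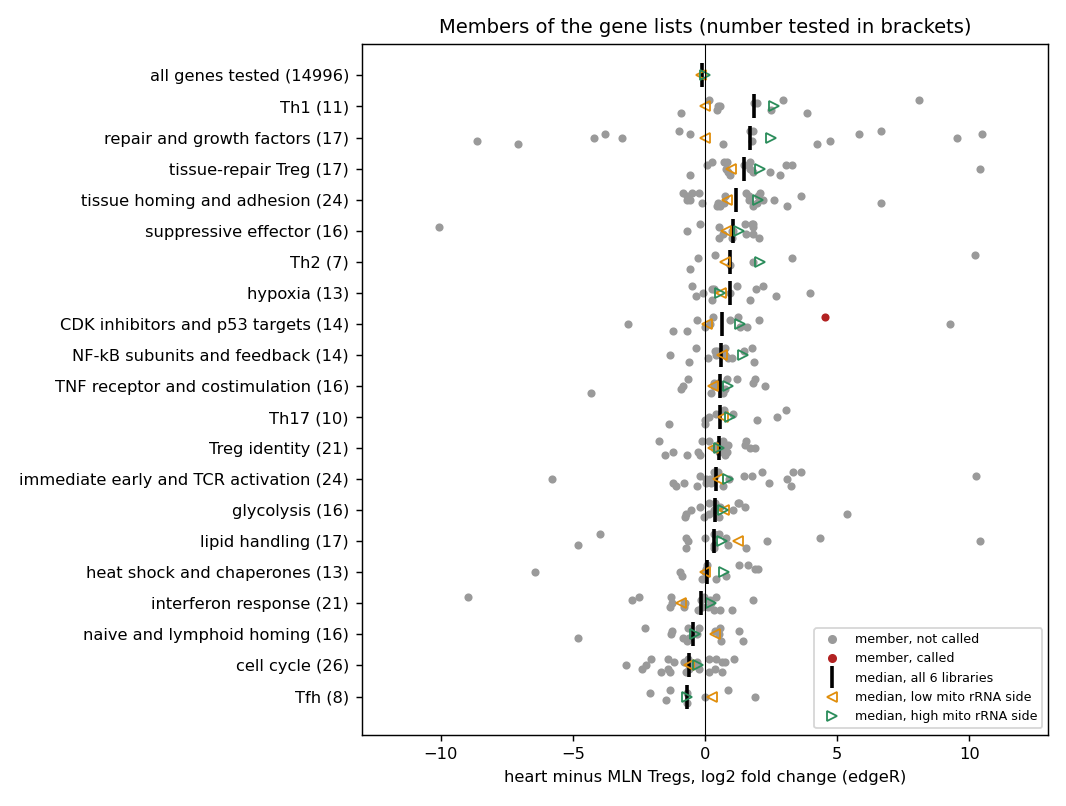
Fitted log2 fold change, heart minus MLN Tregs, of every tested member of 20 gene lists (grey, or red where called), with the median over all 6 libraries (bar) and within the low side (left triangle) and high side (right triangle). The bar of all genes tested lies at -0.12, those of the tissue-repair and tissue homing lists at 1.49 and 1.16, and values beyond about 5 belong to genes at or near 0 counts in one tissue, where the fitted value depends on the prior count.

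Of the tissue homing genes 17 of 24 had log2 fold changes above 0 and 7 below, with none called. Of all 14996 genes tested 6497 were above 0 and 8033 below. Of 24 tissue homing genes 0 were called by edgeR, 1 had an unadjusted p under 0.05, whereas DESeq2 called 1 and limma-voom 2. In 9 all heart libraries lay above all MLN libraries and in 0 below, beside 4.7% and 7.7% of all genes tested. On both sides of the divide 14 were higher and 3 lower (21% and 28.1% of all genes tested), and the median was 1.16. The summed level overlapped between tissues, at 5164, 2905 and 3008 CPM of the library total in heart against 4767, 2233 and 1213 CPM in MLN. Cd44, the hyaluronan receptor, was at 159, 253 and 183 CPM against 61.9, 33.6 and 44.6 CPM (2.08, adjusted p = 0.265). Ccr8, a chemokine receptor of tissue Tregs, was at 493, 359 and 291 CPM against 141, 108 and 76 CPM (1.81, adjusted p = 0.621, limma-voom adjusted p = 0.0453). Both kept their size within each side (1.73 and 2.29 for Cd44, 1.98 and 2.10 for Ccr8). Ccr9, the receptor for the gut chemokine CCL25, was at 98, 122 and 47.8 CPM against 2.17, 1.77 and 17.5 CPM (3.64, adjusted p = 0.498), and Cxcr6, the receptor for CXCL16, at 128, 90.1 and 280 CPM against 60.8, 20.4 and 0.227 CPM (2.61, adjusted p = 0.508). The integrin Itgae overlapped (162, 11.4 and 53 against 223, 96.1 and 40.2 CPM).

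Of 16 naive and lymphoid homing genes 0 were called by edgeR, 2 higher and 3 lower had an unadjusted p under 0.05, whereas DESeq2 called 1 lower and limma-voom 0. Tcf7, which encodes TCF-1, a factor of naive and stem-like T cells, was at 40, 1.82 and 7.74 CPM in heart against 128, 63.5 and 45.4 CPM (-2.26, adjusted p = 0.48), and Id3 at 23.7, 14.1 and 40.1 against 49.7, 52.9 and 85.6 CPM (-1.27, adjusted p = 0.496). Tcf7 passed when heart 1 was left out (-4.04, adjusted p = 0.0333). Ccr7, the receptor that guides T cells into and within lymph nodes, lay the other way, at 1086, 570 and 721 CPM in heart against 319, 487 and 66.6 CPM in MLN (1.44, adjusted p = 0.496), without overlap, and spleen Tregs had 35.4 to 113 CPM. S1pr1, the receptor for exit from nodes, overlapped (128, 89 and 122 against 49.6, 42 and 130 CPM). S1pr1 was 1.48 higher on the low side and 0.30 lower on the high side, in log2.

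Immediate early genes did not move as a block. Of 24 tested members 0 were called by edgeR, 4 higher and 1 lower had an unadjusted p under 0.05, whereas DESeq2 called 2 higher and limma-voom 0, and 8 had all heart libraries above MLN (4.7% of all genes tested). Nr4a3, an orphan receptor induced by antigen receptor signals, was at 223, 144 and 48.6 CPM against 8.53, 24.1 and 8.26 CPM (3.34, adjusted p = 0.496), and the AP-1 subunit Fosl2 at 42.7, 60.7 and 42.8 CPM against 3.48, 8.10 and 0.0454 CPM (3.65, adjusted p = 0.496). Fos, another AP-1 subunit, lay lower in heart than in MLN, at 367, 268 and 73.8 CPM against 480, 664 and 493 CPM (-1.21, adjusted p = 0.731). Spleen Tregs (55.8 to 171 CPM) and NDLN Tregs (13.2 to 210 CPM) overlapped the heart range of Fos and lay below every MLN library. Nr4a1 overlapped (71.5, 178 and 17.2 against 24.7, 3.04 and 68.8 CPM). Among 14 NF-kB genes, 0 were called by edgeR and 2 had an unadjusted p under 0.05, with 1 called by DESeq2 and 1 by limma-voom. Traf1, a signalling adaptor induced by NF-kB, was at 650, 459 and 536 CPM against 216, 133 and 133 CPM (1.77, adjusted p = 0.182), with 1.90 on both sides of the divide.

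Cell cycle genes had log2 fold changes below 0 in 18 of 26 members, beside 8033 of all 14996 genes tested, and Pcna lay the other way. Of 26 tested members 0 were called by edgeR, 1 had an unadjusted p under 0.05, whereas DESeq2 called 1 and limma-voom 0, 14 were lower on both sides (28.1% of all genes tested), and the median was -0.62. Pcna, the sliding clamp of DNA replication, was at 470, 516 and 776 CPM against 241, 277 and 302 CPM without overlap (1.10, adjusted p = 0.332). Mki67, the proliferation antigen Ki-67, was at 24.3, 33.8 and 36 CPM against 40.1, 11.4 and 93.4 CPM. The MLN libraries spanned more than the heart libraries did in Mki67 and enclosed all of them.

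In the interferon response list 0 of 21 were called by edgeR, 2 lower had an unadjusted p under 0.05, whereas DESeq2 called 1 lower and limma-voom 0, and in 4 all heart libraries lay below all MLN libraries (7.7% of all genes tested). Usp18, a negative regulator of interferon signalling, was at 9.25, 24.8 and 0.0759 CPM against 51.5, 110 and 71.9 CPM (-2.77, adjusted p = 0.496), without overlap. Among hypoxia genes, 3 of 13 had all heart libraries above MLN (4.7% of all genes tested) and edgeR called 0 (unadjusted p under 0.05 in 1), DESeq2 0 and limma-voom 1. Hif1a, the oxygen-sensing transcription factor, was at 512, 499 and 564 CPM against 351, 148 and 183 CPM (1.21, adjusted p = 0.449). In the glycolysis list edgeR (unadjusted p under 0.05 in 1 of 16), DESeq2 and limma-voom each called 0, and 3 of 16 had all heart libraries above MLN (4.7% of all genes tested). Among these is Aldoa, which encodes aldolase A (800, 749 and 782 against 411, 383 and 317 CPM, 1.07, adjusted p = 0.534). The groups of Hif1a and Aldoa did not overlap.

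Of 17 lipid handling genes 0 were called by edgeR and limma-voom, 3 had an unadjusted p under 0.05 and DESeq2 called 1 (Pparg). Dgat1, the last enzyme of triglyceride synthesis, was at 502, 618 and 240 CPM against 35.9, 27.8 and 3.68 CPM (4.33, adjusted p = 0.496), and the fatty acid carrier Fabp5 at 226, 294 and 270 CPM against 46.3, 132 and 91.8 CPM (1.55, adjusted p = 0.581). Neither overlapped between tissues. Pparg, a nuclear receptor of lipid metabolism and of adipose tissue Tregs, was at 17.2, 0 and 5.80 CPM in heart and had 0 counts in MLN, at least 161-fold higher over the group but absent from heart 2. Fabp4, a fatty acid carrier of adipocytes and capillary endothelium, came from heart 2 alone (185 CPM, against 0 in each of the other 5 libraries).

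All heart libraries lay above all MLN libraries in 0 of 11 tested Th1, 3 of 7 Th2, 2 of 10 Th17 and 0 of 8 Tfh genes, beside 4.7% of all genes tested. The 3 Th2 genes are Il4 and, as above, Il1rl1 and Ccr8, and the Th17 genes are Rora and Stat3. By edgeR 0 members were called in the Th1 (11 tested), Th2 (7), Th17 (10) and Tfh (8) lists, with unadjusted p under 0.05 in 1, 1, 1 and 3 of them, 0, 1, 1 and 1 calls by DESeq2, and 0, 1, 1 and 0 by limma-voom. Il4, the Th2 cytokine, was at 19.5, 0.395 and 0.0379 CPM in heart and had 0 counts in MLN, so nearly all of it came from heart 1. Ifng, interferon gamma, was at 0, 137 and 143 CPM against 0, 36.5 and 12.5 CPM, with no count in the first library of either tissue. Sh2d1a, the adaptor SAP of follicular helper cells, was at 128, 140 and 148 CPM against 212, 452 and 370 CPM without overlap (-1.31, adjusted p = 0.413), with -1.37 and -1.36 within the sides. Stat3, a signal transducer of Th17 cells, was at 184, 177 and 211 CPM against 151, 76.3 and 49.7 CPM (1.04, adjusted p = 0.537).

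Most growth factors were read in some libraries and not in others. Of 17 tested repair and growth factor genes 0 were called by edgeR and 3 had an unadjusted p under 0.05, with 2 called by DESeq2 and 1 by limma-voom. Ctgf, connective tissue growth factor, was at 1.67, 0.0791 and 10.7 CPM in heart and had 0 counts in MLN, at least 95.6-fold higher over the group. Metrnl, the secreted protein meteorin-like, was at 75 CPM in heart 1, 13.3 and 0.0759 CPM in heart 2 and 3, and 12.1, 13.4 and 0 CPM in MLN, and Hbegf, a ligand of the epidermal growth factor receptor, at 0, 8.70 and 31.2 CPM against 0, 0 and 2.09 CPM. Both overlapped between tissues. Spp1, which encodes osteopontin, came from heart 1 alone (23.8 CPM, against 0 in each of the other 5 libraries). Osm, the cytokine oncostatin M, was lower in every heart library, at 0, 0 and 1.71 CPM against 1.89, 14 and 15.9 CPM (adjusted p = 0.66).

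In the TNF receptor and costimulation list 0 of 16 were called by edgeR, DESeq2 and limma-voom, 1 had an unadjusted p under 0.05, and all 16 overlapped between tissues. Of all genes tested 12.4% did not overlap. Tnfrsf4, the costimulatory receptor OX40, was abundant in both, at 3268, 2270 and 2646 CPM against 1769, 3576 and 1104 CPM, and Tnfrsf18, which encodes GITR, was at 565, 1239 and 1418 against 421, 588 and 878 CPM. Of 13 heat shock genes 0 were called by edgeR and limma-voom, 2 had an unadjusted p under 0.05, and DESeq2 called 1 higher and 1 lower. Dnajb1, a cochaperone of HSP70, was at 109, 177 and 254 CPM against 32.8, 45.3 and 66.3 CPM (1.90, adjusted p = 0.496). Hsp90b1, the chaperone of the endoplasmic reticulum, was at 82.8, 351 and 332 CPM against 105, 62.7 and 80.5 CPM, higher in heart on the high side (2.08) and not on the low side (-0.02).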

How the data were processed

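RNA was sequenced from 21 sorted T cell libraries in 7 groups of 3, of which 6 are described here. The deposited values are read counts per gene on build mm10, made by the authors with HISAT2, HTSeq 0.6.0 and CASAVA 1.8.2 per the submitters' processing notes. Which annotation and strand setting they used, and how multiply matching reads were handled, is not given in the sources used here. Of 49510 gene rows 49326 matched the GENCODE M21 names, and 26 symbols that had been turned into dates were restored.

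Counts of all 21 libraries were fitted with edgeR 4.0.16 in R 4.3.3 (quasi-likelihood test, robust, TMM factors, 7 groups without covariates), so that the groups share 1 estimate of the spread. Genes were kept by filterByExpr (minimum count 10, minimum total 15), p-values were adjusted by Benjamini and Hochberg over 14996 genes, and genes under 0.05 were called. The common dispersion was 2.19. The script of the edgeR fit was run on simulated counts as a check. Levels are CPM with TMM factors (0.933 to 1.35 here), and log2 fold changes and their SE come from the fit. The divide was set at 0.5% of counts in mitochondrial rRNA. Genes with 0 counts in a group are given by a bound from 3 counts, and ratios by a 95% counting interval, both of which cover counting error only. An exact permutation test of 3 against 3 libraries cannot go below p = 0.1 and was not used.

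Named genes are, per direction, up to 12 called genes without overlap whose higher group averaged 20 CPM or more, filled up with the uncalled genes of smallest p that have one direction on both sides of the divide, plus list members and a set of Treg genes. Predicted, ribosomal protein, mitochondrial and immunoglobulin genes were left out of this rule, and a few genes it names are not reported here. The comparison, the lists and these rules were chosen with earlier results of these data known, so no list is independent evidence of its direction. Alternatives were RLE factors, other filters, the 6 libraries alone, a replicate block, a term for the divide and each library left out. Others were contrasts within each side, from 1 fit of all 21 libraries, DESeq2 1.42.0 and limma-voom 3.58.1. Promoters are from RefSeq.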

Additional observations from a re-analysis of the deposited data

How the results depend on the processing

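The count of 10 called genes (7 higher, 3 lower) moved with nearly every setting, while all 10 kept their direction in all 16. It was 2 (1 higher, 1 lower) with RLE factors, 118 (69 higher, 49 lower) without the low-count filter (Arf4 lost, adjusted p = 0.0816), 0 in the 6 libraries alone, 13 (7 higher, 6 lower) with a term for the divide, 3 within the low side, 8 within the high side, 1008 by DESeq2 and 226 by limma-voom. Without mitochondrial and ribosomal protein genes it was 11, and all 10 were among them. Leaving out 1 library gave 1 (without MLN 3) to 34 (without heart 1). Replicate numbers were shared between tissues, and same-numbered libraries deviated together in pairs 1 and 3 (correlations 0.29 and 0.19), which each lie on 1 side of the divide, and not in pair 2 (-0.06), which crosses it. Whether the numbers mark a shared source is not known. With the replicate block 4 genes were called (2 higher, 2 lower), Dcn among the 10, and the deviations of heart 2 lay closest to MLN 3 (0.157).

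Of the named genes, 593 of the alternative values kept their direction and their status, called or not called. Most of the named genes were not called in the main fit, so most of these values are of genes that stayed uncalled. A further 93 values lost a call, 49 gained one and 17 changed sign. All 93 losses fell on genes called in the main fit. Of 16 alternatives, Emb was called in 14, Gm19261 in 9 and each of the other called genes in only 5 or 6. Ikzf2 turned to -0.0666 with the divide term and to -0.30 and -0.14 within the low and high sides, and leaving out 1 library gave -0.0460 (without MLN 2) to 0.62, with -0.0275 without heart 3. Cd3e turned to -0.0679 with the divide term, -0.18 within the high side and -0.00403 by limma-voom, and leaving out 1 library gave -0.12 (without heart 3 or MLN 2) to 0.20, with -0.0203 without heart 1. Itgae turned to 0.0880 with the divide term and 0.0223 within the low side, and leaving out 1 library gave -1.90 to 0.0932 (without MLN 1). S1pr1 turned to -0.30 within the high side. Leaving out 1 library gave -0.32 (without heart 2) to 0.73 for Cd4 and -1.09 to 0.28 (without MLN 3) for Mki67. The cause of these changes was not tested.

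The limits are 3 libraries per group, 1 or 2 per tissue on each side of the divide, and a common dispersion of 2.19. Depth ran from 17108984 to 28323649 counts and limits genes with few reads, where the bounds above apply.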

Other observations

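Genes that came close to the threshold had tissue differences of both directions. Below an unadjusted p of 0.001 (edgeR) there were 45 protein-coding genes that were not called, 22 higher and 23 lower in heart. Of these, 44 had the same sign on both sides of the divide, which a choice by p from both sides together favours. The genes named here were chosen after their values were seen. Hilpda, a lipid droplet protein induced by hypoxia, was at 743, 695 and 1057 CPM in heart and at 96.2, 208 and 118 CPM in MLN (log2 fold change 2.56, adjusted p = 0.193). Kdm6b, a demethylase of histone H3, was at 51.8, 177 and 150 CPM against 16.4, 5.06 and 18.5 CPM (3.25, adjusted p = 0.171), and it passed when heart 1 was left out (adjusted p = 0.0471). Samsn1, an adaptor of lymphocyte signalling, was nearly level among the MLN libraries, at 271, 264 and 265 CPM, and stood at 953, 680 and 816 CPM in heart (1.61, adjusted p = 0.244). Smc4, a condensin subunit, was at 269, 289 and 268 CPM in heart and at 640, 573 and 446 CPM in MLN (-1.01, adjusted p = 0.265). None of these 4 genes overlapped between tissues.

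Crem, a transcription factor of cyclic AMP signalling, had one of the wider gaps among abundant genes that were not called, at 967, 1924 and 1727 CPM against 91.7, 96.6 and 127 CPM (3.87, adjusted p = 0.496), and it passed in the fit with a replicate block (adjusted p = 0.0336). Odc1, the first enzyme of polyamine synthesis, was at 3633, 682 and 310 CPM against 239, 324 and 34.1 CPM (2.95, adjusted p = 0.43) and passed with a term for the divide (adjusted p = 0.0214).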
